A study of Monodelphis domestica with 6 samples.

Results

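The genes described here encode telomerase and shelterin, the enzyme that lengthens chromosome ends and the protein complex that covers them, in the opossum Monodelphis domestica. The 10 listed symbols TERT, DKC1, GAR1, NOP10, TERF1, TERF2, POT1, TINF2, ACD and RTEL1 were looked up by symbol, and 10 of 10 had a row among the 35665 genes of the tables. Their RNA was followed from neonatal skin fibroblasts (neoSFs), the parental cells, into the induced pluripotent stem cells reprogrammed from them (monoiPSCs). The neoSFs were untreated wild type primary cultures, 1 library each from the fully inbred strains FD2M1 and LSD1. The monoiPSCs were also wild type and came from neoSFs of the same strains after nucleofection with episomal plasmids for human SOX2, OCT4, KLF4, NANOG, cMYC and LIN28, together with a plasmid for a dominant-negative mouse p53, and were picked as colonies and grown feeder-free with LIF and bFGF. There were 4 monoiPSC libraries, the FD2M1 and LSD1 lines at passage 15 and passage 25. With 1 line per strain, strain and line cannot be told apart, and both passages of a line are the same cells at different times rather than separate reprogramming events.

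Telomerase copies a short repeat onto chromosome ends from its own RNA template. TERT is its reverse transcriptase, and in most somatic cells of eutherian mammals TERT transcription is the limiting step, while pluripotent stem cells keep the enzyme active. Dyskerin (DKC1) with GAR1, NOP10 and NHP2 binds the telomerase RNA and keeps it stable, and the same proteins serve the many H/ACA guide RNAs that modify ribosomal RNA. Shelterin holds the end in a closed form: TERF1 and TERF2 bind the duplex repeat, POT1 binds the single strand, TINF2 joins the duplex binders to ACD, and ACD (TPP1) carries POT1 and recruits telomerase. RTEL1 is a helicase that unwinds the closed end during replication.

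The libraries held 14278794 and 16982978 counts in neoSFs and 28684754 to 35564261 in monoiPSCs, which are written here by line and passage as FD2M1-P15, FD2M1-P25, LSD1-P15 and LSD1-P25. The neoSFs were read in-house with shorter single-end reads and the monoiPSCs by a sequencing service with longer paired-end reads, so the cell type and the sequencing cannot be told apart in any neoSF against monoiPSC comparison. Values are given as normalized read counts (NRC), which correct for depth but not for gene length, so levels are compared between libraries and not between genes. The fibroblast and pluripotency markers followed the labels. The summed NRC of 5 fibroblast genes with a row, of 6 listed, was 1449392 to 1628280 in neoSFs and 2017 to 6104 in monoiPSCs, and that of 5 of 5 pluripotency genes was 111 to 156 in neoSFs, where POU5F1, SOX2, NANOG and LIN28A had at most 3 counts, and 8647 to 12499 in monoiPSCs. Of the other cell types, the 2 melanocyte genes with a row, TYR and DCT of 3 listed, summed to 1.58 to 7.80 in neoSFs and 4377 to 15282 in monoiPSCs, and the 3 skeletal muscle genes to 333 to 1180 in neoSFs and 1335 to 10353 in monoiPSCs. Only 1 of these melanocyte genes was high enough to enter the test below, so the sum does not show a rise of both. Of the 3 muscle genes, 1 was called as higher in that test and 2 were not called. Of 3 keratinocyte genes, 2 had a row and summed to at most 9.76, and the 3 endothelial and blood genes summed to at most 22.0, with CDH5 at no more than 3 counts in any library. The 6 cell cycle genes rose from a summed NRC of 3431 to 4550 in neoSFs to 35169 to 49192 in monoiPSCs. In these bulk libraries fewer cells of a type and less RNA per cell cannot be told apart, and the part of these other genes in the results below was not tested.

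TERT, ACD and RTEL1 rose in monoiPSCs, by 15.8-fold, 3.18-fold and 2.39-fold, and the other 7 members did not pass the test. Calls needed a 2-fold change or more and a p of 0.05 or less in edgeR's quasi-likelihood test after Benjamini-Hochberg adjustment over every gene tested. Of all 13072 genes tested, 45.9% were called, 24.3% as higher and 21.6% as lower in monoiPSCs. The members thus had 3 of 10 called as higher, a share of 30.0% that was close to the 24.3% of all genes. As lower, 0 of 10 were called by edgeR, and also 0 by DESeq2 and limma. In this edgeR fit, which had no strain block, 0 of the lower values had an unadjusted p under 0.05. Under limma NOP10 had a log2 fold change of -0.67 with an adjusted p of 0.0419, which is under 2-fold. Their median log2 fold change was 0.38, against 0.08 over all genes tested. All 10 passed the filter on low values, and TERT passed it only through its level in monoiPSCs.

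**Figure D1:**
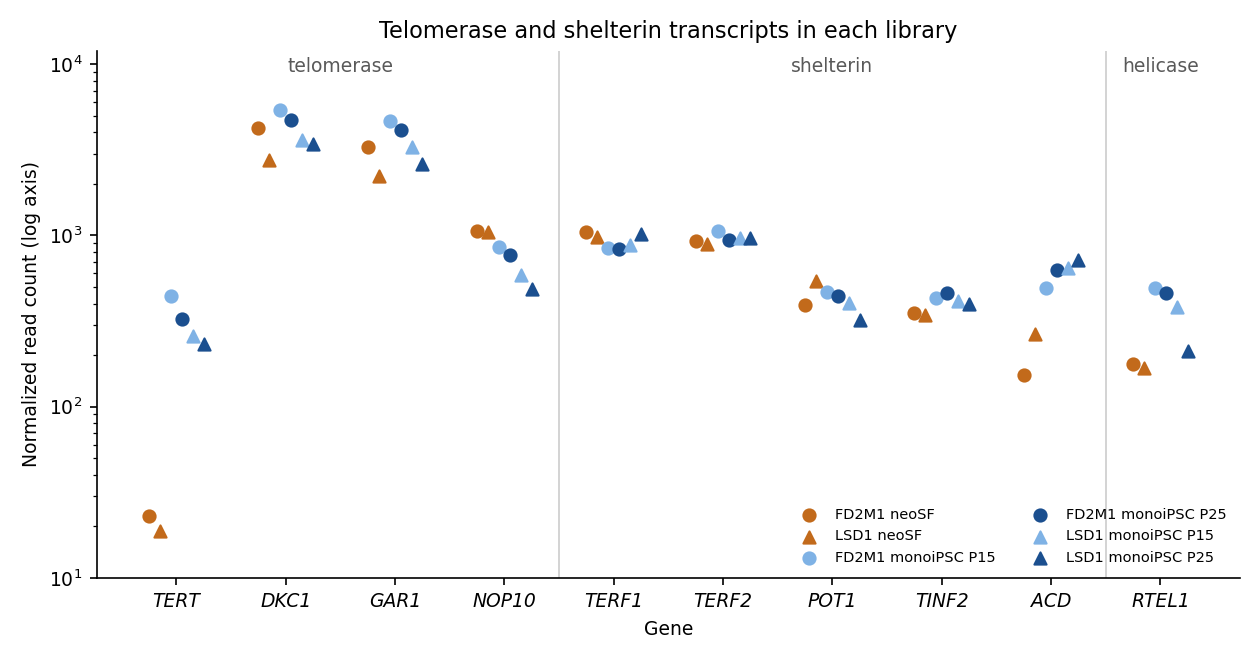
Normalized read count (log axis) of each gene in the 6 libraries. Orange symbols are neoSFs, light blue monoiPSCs at passage 15 and dark blue monoiPSCs at passage 25, with circles for FD2M1 and triangles for LSD1. TERT lies at 18.7 and 23.1 in neoSFs and at 232 or above in every monoiPSC library, while the shelterin genes other than ACD stay within a narrow range.

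TERT (gene 103104146, on chromosome 3 of MonDom5) was low in fibroblasts, with an NRC of 23.1 (FD2M1) and 18.7 (LSD1). Its NRC reached 440 in FD2M1-P15, 323 in FD2M1-P25, 258 in LSD1-P15 and 232 in LSD1-P25. Every monoiPSC library was above both neoSF libraries, and both FD2M1 libraries were above both LSD1 libraries within the monoiPSCs. The log2 fold change was 3.98 (standard error 0.42, 95% interval 3.00 to 4.96, adjusted p = 0.000202, edgeR's quasi-likelihood test), and 6.46% of the genes tested had a higher one. Within strains the difference of the log2 values was 4.03 for FD2M1 and 3.71 for LSD1. TERT was low but detected in neoSFs, with a rounded count of 12 in each library, above the limit of 3 counts that a count of 0 would allow. The exact Poisson interval of 12 counts corresponds to an NRC of 12.1 to 40.9 in the FD2M1 neoSFs and 9.82 to 33.2 in the LSD1 neoSFs, and it covers counting error only. The lowest bound of a monoiPSC library was 211. By an exact permutation test over the 15 splits of 4 against 2 libraries, the two-sided p was 0.0667 for TERT and ACD, the smallest that these splits allow, and 0.133 for RTEL1. Genes that were not called reached the same values by this permutation test, 0.0667 for TINF2 and 0.133 for NOP10. The splits leave out the pairing by strain and treat both passages of a line as separate libraries.

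The 3 genes whose profile over the 6 libraries was nearest to that of TERT, after each gene's mean log2 value was subtracted, were PGM2, UHRF1 and GYPC, out of 11382 tested genes with a symbol other than a LOC number. Their root mean square differences from TERT were 0.14, 0.19 and 0.20 on the log2 scale. PGM2, an enzyme that acts on pentose phosphates, had an NRC of 393 (FD2M1) and 273 (LSD1) in neoSFs and 6613, 5901, 4934 and 4062 in FD2M1-P15, FD2M1-P25, LSD1-P15 and LSD1-P25. UHRF1, which helps to copy DNA methylation at replication, had 671 and 430 in the neoSFs and 4800 to 8356 in monoiPSCs. GYPC, a membrane protein of the glycophorin group, had 133 and 127 in the neoSFs and 1566 to 2235 in monoiPSCs. These genes were chosen by their likeness over the same libraries, so the levels are a description.

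The dyskerin-side genes were already well detected in fibroblasts and none of them was called. DKC1 (gene 100023276, on chromosome X of MonDom5) stood at 4255 (FD2M1) and 2773 (LSD1) in neoSFs. DKC1 was at 5389 in FD2M1-P15, 4744 in FD2M1-P25, 3599 in LSD1-P15 and 3424 in LSD1-P25. The groups overlapped, because the FD2M1 neoSFs lay above both LSD1 monoiPSC libraries. Within each strain both monoiPSC libraries were above the neoSFs, with a mean log2 difference of 0.25 for FD2M1 and 0.34 for LSD1. The log2 fold change was 0.39 (standard error 0.26, 95% interval -0.22 to 0.99, adjusted p = 0.229, edgeR). It was 0.72 without the FD2M1 neoSFs and 0.11 without the LSD1 neoSFs. With strain as a block it was 0.39 with an adjusted p of 0.0388 (edgeR), past the p threshold and under 2-fold.

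GAR1 (gene 100009876, chromosome 5), a small glycine- and arginine-rich partner of dyskerin, was likewise higher in FD2M1 than in LSD1 within neoSFs and within each passage. Its values were 3275 (FD2M1) and 2238 (LSD1) in neoSFs and 4640, 4159, 3280 and 2599 in FD2M1-P15, FD2M1-P25, LSD1-P15 and LSD1-P25. The groups overlapped, with a log2 fold change of 0.51 (standard error 0.27, 95% interval -0.13 to 1.15, adjusted p = 0.140, edgeR) that was 0.80 without the FD2M1 and 0.27 without the LSD1 neoSFs. Within each strain both monoiPSC libraries were above the neoSFs, with a mean log2 difference of 0.42 for FD2M1 and 0.38 for LSD1. With strain as a block the log2 fold change was 0.51 with an adjusted p of 0.0269 (edgeR), past the p threshold and under 2-fold. Within every library GAR1 and DKC1 kept nearly the same ratio, with a log2 ratio between -0.40 and -0.13.

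NOP10 (gene 100026615, chromosome 1), the smallest protein of the particle, went the other way. The neoSFs held 1059 (FD2M1) and 1042 (LSD1), against 858 in FD2M1-P15, 767 in FD2M1-P25, 589 in LSD1-P15 and 489 in LSD1-P25. Every monoiPSC library was below both neoSF libraries, as it was for 37.1% of the genes tested. The log2 fold change of -0.54 (standard error 0.24, 95% interval -1.10 to 0.02, adjusted p = 0.0847, edgeR) did not pass the test. With strain as a block it was -0.58 with an adjusted p of 0.0355 (edgeR), past the p threshold and under 2-fold. The log2 ratio of NOP10 to DKC1, which does not depend on the scaling of the libraries, was -2.01 and -1.41 in the neoSFs and between -2.81 and -2.61 in the monoiPSCs, a mean difference of -0.96. The groups did not overlap in this ratio, nor in that of NOP10 to GAR1, which averaged -1.37 in neoSFs and -2.44 in monoiPSCs. These ratios were chosen after the values were seen and are given without a test.

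**Figure D2:**
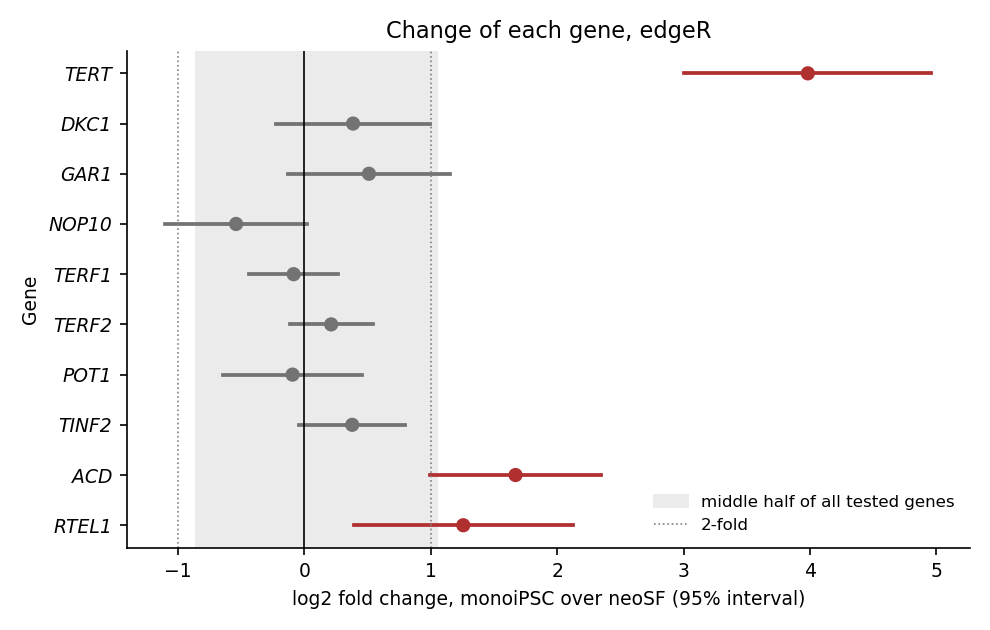
Log2 fold change of monoiPSCs over neoSFs with its 95% interval from edgeR (x axis) for each gene (y axis). Red marks the called genes, dotted lines mark 2-fold and the grey band covers the middle 50% of all genes tested, and only TERT, ACD and RTEL1 are called.

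Of shelterin, ACD was called, and the genes of the DNA-binding subunits and of TINF2 were not. ACD (gene 103105155, on chromosome 1 of MonDom5) stood at an NRC of 153 (FD2M1) and 264 (LSD1) in neoSFs. ACD reached 497 in FD2M1-P15, 632 in FD2M1-P25, 642 in LSD1-P15 and 724 in LSD1-P25. The groups did not overlap, and LSD1 was above FD2M1 both in neoSFs and in monoiPSCs. The log2 fold change was 1.67 (standard error 0.29, 95% interval 0.99 to 2.35, adjusted p = 0.00190, edgeR), and it was 1.33 without the FD2M1 neoSFs and 2.14 without the LSD1 neoSFs. In the mMonDom1.pri annotation, which is another assembly, the span of ACD overlaps that of PARD6A, a cell polarity gene. PARD6A was at 0 in both neoSF libraries and at an NRC of 19.4 to 39.3 in monoiPSCs. The mean NRC of ACD went from 209 ± 78.7 (SD, n = 2) to 623 ± 94.1 (SD, n = 4). The part of shared reads in the counts of ACD was not tested.

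TINF2 (gene 100030807, chromosome 1), the hub that ACD binds, stood at 355 (FD2M1) and 345 (LSD1) in neoSFs. TINF2 was at 431 in FD2M1-P15, 462 in FD2M1-P25, 416 in LSD1-P15 and 395 in LSD1-P25. All 4 monoiPSC libraries were above the neoSFs, as they were for 36.1% of the genes tested, and the difference was small, with a log2 fold change of 0.38 (standard error 0.18, 95% interval -0.04 to 0.80, adjusted p = 0.101, edgeR). GMPR2, whose span overlaps that of TINF2 in mMonDom1.pri, had 557 to 558 in neoSFs and 528 to 698 in monoiPSCs, and the part of shared reads was not tested. The log2 ratio of ACD to TINF2 was -1.21 and -0.39 in the FD2M1 and LSD1 neoSFs and 0.20 to 0.87 in the monoiPSCs, so the groups did not overlap and the mean differed by 1.34.

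TERF1 (gene 100028340, chromosome 3) and TERF2 (gene 100028044, chromosome 1) had the narrowest intervals of all members. The NRC of TERF1, which restrains telomere lengthening, was 1046 (FD2M1) and 980 (LSD1) in neoSFs and 842, 836, 877 and 1020 in FD2M1-P15, FD2M1-P25, LSD1-P15 and LSD1-P25. The groups overlapped through LSD1-P25, and the log2 fold change of -0.09 had a 95% interval of -0.44 to 0.27 (adjusted p = 0.643, edgeR). TERF2, which prevents the joining of chromosome ends, had 928 and 887 in the neoSFs and 1065, 939, 961 and 972 in the monoiPSCs in the same order. All monoiPSC libraries were above the neoSFs by a small margin, and the log2 fold change of 0.21 had a 95% interval of -0.12 to 0.54 (adjusted p = 0.221, edgeR). For both genes the intervals leave out a 2-fold change in either direction. The log2 ratio of TERF1 to TERF2 was 0.17 and 0.14 in neoSFs and between -0.34 and 0.07 in monoiPSCs.

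POT1 (gene 100017427, chromosome 8) was the single member whose strains differed in the sign of the change, and it was not called. For FD2M1 its NRC was 393 in neoSFs, 467 in FD2M1-P15 and 443 in FD2M1-P25. For LSD1 it was 540 in neoSFs, 405 in LSD1-P15 and 322 in LSD1-P25, so the groups overlapped. The mean difference of the log2 values was 0.21 within FD2M1 and -0.58 within LSD1. The pooled log2 fold change was -0.09 (95% interval -0.64 to 0.46, adjusted p = 0.746, edgeR), and it was 0.16 without the LSD1 neoSFs. The difference of the change between strains, added after the values were seen, was -0.80 on the log2 scale (95% interval -1.78 to 0.17, adjusted p = 0.645, edgeR with an interaction term), and rests on 1 neoSF library per strain. None of the 10 members passed this test, with 0 at an unadjusted p under 0.05, and 0.0841% of all genes did.

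**Figure D3:**
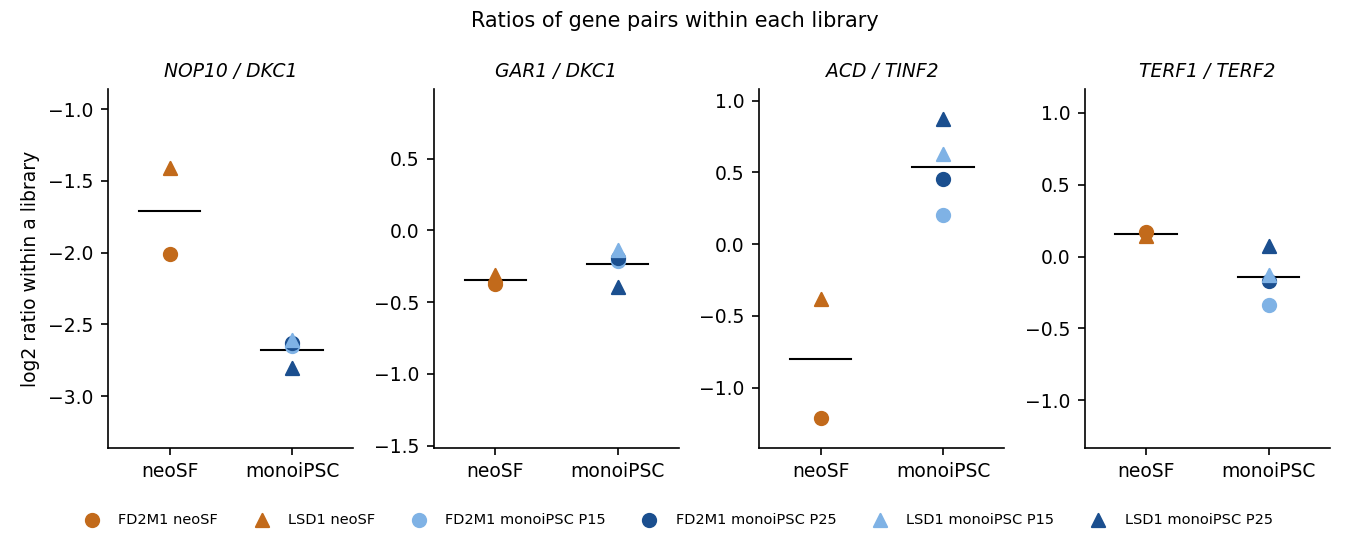
Log2 ratio of the normalized read counts of gene pairs within each library (y axis, the same span in every panel), for neoSFs (orange) and monoiPSCs (light blue at passage 15, dark blue at passage 25), with circles for FD2M1, triangles for LSD1 and a line at the group mean. NOP10 over DKC1 is lower and ACD over TINF2 higher in every monoiPSC library, while GAR1 over DKC1 stays between -0.40 and -0.13.

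RTEL1 (gene 100024799, on chromosome 1 of MonDom5) stood at an NRC of 178 (FD2M1) and 168 (LSD1) in neoSFs. RTEL1 reached 493 in FD2M1-P15, 460 in FD2M1-P25, 380 in LSD1-P15 and 212 in LSD1-P25. All monoiPSC libraries were above the neoSFs, and LSD1-P25 was the nearest to them. The log2 fold change was 1.26 (standard error 0.37, 95% interval 0.39 to 2.12, adjusted p = 0.0201, edgeR). The call was lost without the FD2M1 neoSFs (log2 fold change 1.29, adjusted p = 0.0717) and without the LSD1 neoSFs (1.22, adjusted p = 0.0849, both edgeR), and without LSD1-P25 the log2 fold change was 1.44. TNFRSF6B, a decoy receptor gene whose span overlaps that of RTEL1 in mMonDom1.pri, fell from an NRC of 126 to 439 in neoSFs to 18.1 to 37.9 in monoiPSCs. The part of shared reads in the counts of RTEL1 was not tested.

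For each of the listed telomerase genes, TERT, DKC1, GAR1 and NOP10, the NRC of the strains kept the same order. LSD1 was below FD2M1 in all 3 matched pairs (neoSFs, passage 15 and passage 25) for TERT, DKC1, GAR1, NOP10, TINF2 and RTEL1, which is 6 of 10 members, against 19.0% of the genes tested. The passage 15 and passage 25 pairs come from the same lines. For TERT the log2 differences (LSD1 minus FD2M1) were -0.30 in neoSFs, -0.77 at passage 15 and -0.48 at passage 25. The neoSF difference of TERT came from the scaling of the libraries alone, because both neoSF libraries had 11.8 counts before it. For TINF2 the log2 differences (LSD1 minus FD2M1) were small, -0.04 in neoSFs, -0.05 at passage 15 and -0.22 at passage 25. For ACD LSD1 was above FD2M1 in all 3 pairs, against 16.1% of the genes tested. DKC1 gave the most even difference, with log2 differences (LSD1 minus FD2M1) of -0.62 in neoSFs, -0.58 at passage 15 and -0.47 at passage 25. For GAR1 the corresponding differences were -0.55, -0.50 and -0.68. For NOP10 they were -0.02, -0.54 and -0.65, so the neoSFs of the strains hardly differed. For RTEL1 they widened from -0.08 in neoSFs to -0.38 and -1.12 in the monoiPSC pairs. The summed NRC of the cell cycle genes was also lower in LSD1 in each pair, with 3431 against 4550 in neoSFs, 35169 against 44719 at passage 15 and 39226 against 49192 at passage 25, and its part in these differences was not tested.

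**Figure D4:**
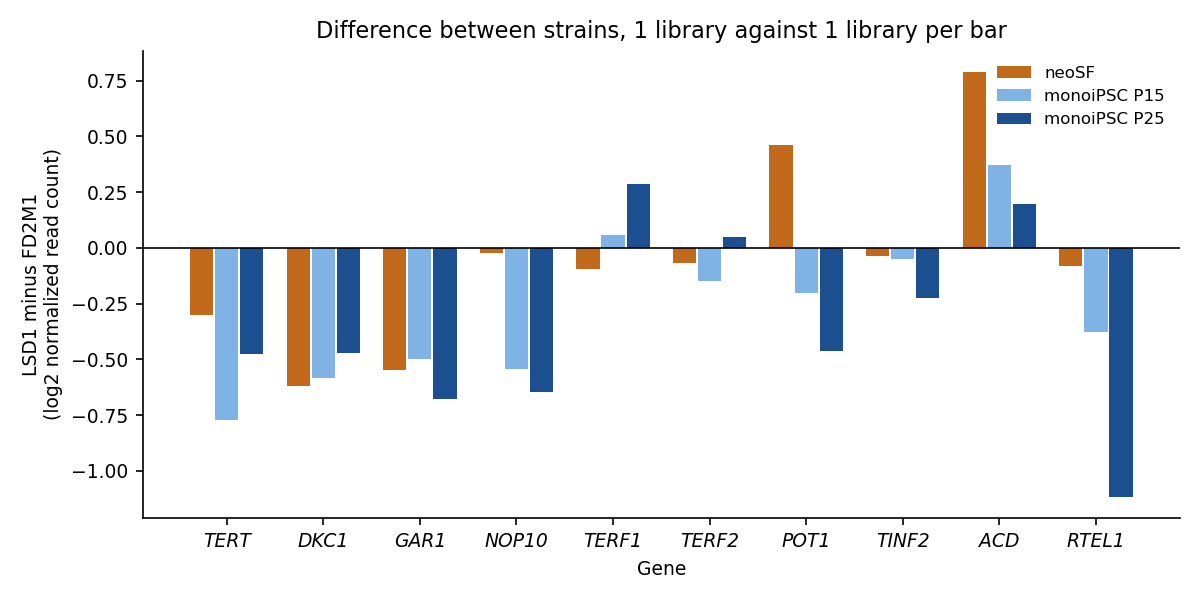
Difference of the log2 normalized read count, LSD1 minus FD2M1 (y axis), for each gene in neoSFs (orange), monoiPSCs at passage 15 (light blue) and monoiPSCs at passage 25 (dark blue). Each bar compares 1 library with 1 library and has no error bar, and TERT, DKC1, GAR1 and NOP10 lie below 0 in every pair. The neoSF bar of TERT rests on equal rounded counts, 12 in each library.

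In the test of the LSD1 against the FD2M1 line, with passage as a covariate, none of the members was called, nor was any of the 12252 genes tested (0% called, edgeR). The replicates of a line in this test are its passages. Its p-values thus measure the spread within these lines and not between lines or strains. At an unadjusted p under 0.05 there were 5 of 10 members, all with the lower value in LSD1, against 14.2% of all genes in either direction and 7.01% with the lower value in LSD1. These were RTEL1 (log2 difference -0.74, adjusted p = 0.305), TERT (-0.62, adjusted p = 0.321), NOP10 (-0.59, adjusted p = 0.251), GAR1 (-0.59, adjusted p = 0.222) and DKC1 (-0.52, adjusted p = 0.234), each failing the correction over all genes. With all 6 libraries and the cell type as a covariate, chosen after the data were seen, GAR1 (-0.57, 95% interval -0.91 to -0.23) and DKC1 (-0.56, 95% interval -0.85 to -0.26) had an unadjusted p under 0.05, as did 9.63% of all genes, and both had an adjusted p of 0.432 (edgeR). The members called by DESeq2 and by limma in this comparison were also 0, while DESeq2 called 1.66% of all genes.

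In the comparison of passage 25 with passage 15, in which the strain was a covariate, 0 of 10 members and 0 of 12252 genes were called by edgeR (0%), and 0 of 10 members had an unadjusted p under 0.05, against 9.35% of all genes, 4.42% with the lower value at passage 25. DESeq2 and limma also called 0 members, while DESeq2 called 0.977% of all genes. TERT had a log2 difference of -0.31 (95% interval -0.88 to 0.25), with -0.45 in the FD2M1 line and -0.15 in the LSD1 line. For RTEL1 the difference was -0.48 (95% interval -1.12 to 0.16), and it lay almost wholly in the LSD1 line, with -0.84 against -0.10 in FD2M1. ACD had 0.24 (95% interval -0.20 to 0.69), and was higher at passage 25 in both lines.

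Around these genes, 51 other telomere genes were listed in groups by role, of which 45 had a row and 43 were tested. There were 9 called as higher and 4 as lower, a share of higher calls of 20.9% against 24.3% of all genes and of lower calls of 9.30% against 21.6% of all genes. Among the called genes, PIF1 and WT1 passed the filter only through the group where they were high. The median log2 fold change was 0.25, against 0.08 over all genes tested. The lists hold few genes each, their counts stand beside these same shares of all genes, and the difference between lists was not tested.

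Of 11 tested genes for telomerase assembly and accessory roles, 2 were higher, 1 was lower and 8 were not called, with a median log2 fold change of 0.58. RUVBL2 and RUVBL1, the AAA+ ATPases that help to assemble the particle, rose with log2 fold changes of 1.47 and 1.22 (adjusted p = 0.000334 and 0.000363, edgeR). RUVBL2 went from an NRC of 1044 to 1326 in neoSFs to 2695 to 3374 in monoiPSCs. TEP1, a protein found with both telomerase and vault particles, fell by 2.42 on the log2 scale (adjusted p = 0.000121, edgeR), from 1130 to 1930 in neoSFs to 241 to 287 in monoiPSCs. NHP2, the remaining protein of the dyskerin particle, is named after its value was seen. It stood at 1773 to 1868 in neoSFs and 2296 to 3187 in monoiPSCs, a log2 fold change of 0.66 that passed the p threshold (adjusted p = 0.0117, edgeR) and not the fold threshold.

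Of 8 genes tied to shelterin, 0 were higher, 1 was lower and 7 were not called, with a median log2 fold change of -0.02. SLX4, a scaffold for DNA nucleases, fell by 1.41 on the log2 scale (adjusted p = 0.00194, edgeR). TERF2IP (RAP1), the subunit that binds TERF2, likewise named after its value was seen, had an NRC of 984 to 1091 in neoSFs and 1059 to 1343 in monoiPSCs (log2 fold change 0.25, adjusted p = 0.218, edgeR).

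Of 7 genes of the CST complex and of the polymerase alpha-primase that fills in the C-rich strand, 4 were higher (57.1%, against 24.3% of all genes), 0 were lower (against 21.6%) and 3 were not called, with a median log2 fold change of 1.28. PRIM2, POLA2 and POLA1, subunits of primase and polymerase alpha that also start ordinary DNA replication, rose (adjusted p = 0.00255, 0.00446 and 0.000523, edgeR), PRIM2 with a log2 fold change of 1.81, POLA2 by 3.47-fold and POLA1 by 3.15-fold. CTC1, the large subunit of the CST complex, named after its value was seen, rose 2.43-fold (adjusted p = 0.00115, edgeR), from 438 to 495 in neoSFs to 883 to 1275 in monoiPSCs. The catalytic primase subunit PRIM1, named here after its value was seen, had an NRC of 110 to 113 in neoSFs and 50.5 to 76.8 in monoiPSCs (log2 fold change -0.70, adjusted p = 0.0810, edgeR).

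Of 12 helicase, nuclease and chromatin genes, 3 were higher, 0 were lower and 9 were not called, with a median log2 fold change of 0.30. PIF1, a helicase that can strip telomerase from DNA, had the highest log2 fold change, 6.22 (standard error 0.51, adjusted p = 7.19e-05, edgeR), from an NRC of 10.6 to 19.0 in neoSFs to 682 to 1431 in monoiPSCs, and passed the filter only through monoiPSCs. EXO1 and BLM, a nuclease and a helicase of DNA repair and recombination, rose with log2 fold changes of 3.16 and 2.53 (adjusted p = 0.000214 and 0.000335, edgeR). Of 5 genes that regulate TERT transcription, 0 were higher, 2 were lower and 3 were not called. MAX, the partner of MYC, fell by 1.26 on the log2 scale (adjusted p = 0.000734, edgeR). WT1, a zinc finger factor, had an NRC of 118 to 244 in neoSFs and at most 2.50 counts in a monoiPSC library. It passed the filter only through neoSFs, the group where it was high. WT1 was at least 96.3-fold lower against a floor of 3 counts per library on the NRC scale. Counted from the lower neoSF library alone, it was at least 62.9-fold lower. Opossum MYC, named after its value was seen, was at 5232 to 6169 in neoSFs and 3139 to 4296 in monoiPSCs, a log2 fold change of -0.56 that passed the p threshold (adjusted p = 0.0269, edgeR) and not the fold threshold.

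**Figure D5:**
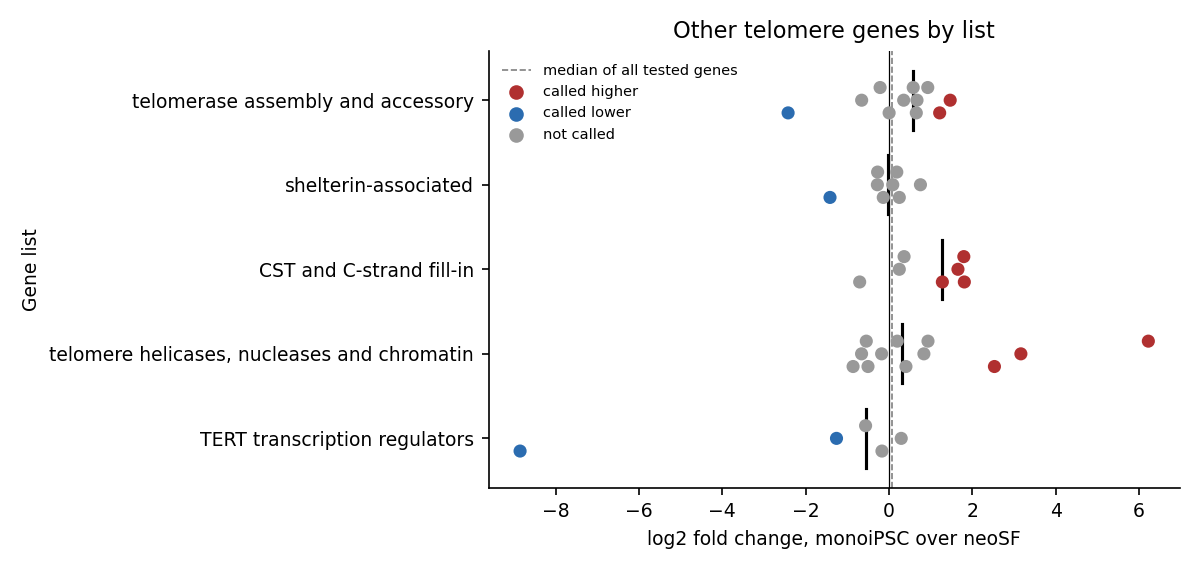
Log2 fold change of monoiPSCs over neoSFs (x axis) of the 43 other telomere genes tested, by list (y axis). Red points are called higher, blue points called lower and grey points not called, black ticks are the list medians, and PIF1 at 6.22 and WT1 at the left lie farthest from 0.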

How the data were processed

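Poly(A) RNA of 2 neoSF and 4 monoiPSC libraries was sequenced. The authors aligned reads to MonDom5 and RefSeq transcripts with StrandNGS, filtered them by quality and mapping, and deposited the result per gene as raw counts. These values from the authors were handled as estimated counts and rounded here, because 85.3% of those above 0 were not whole (tolerance 0.001). The log2 values, deposited by the authors after DESeq scaling, gave the NRC. The submitters' processing notes name bcl2fastq and DESeq. The labels name a kit that does not mark strand, and the methods name for the neoSFs both that kit and a stranded technology, so overlapping genes may share reads. The filter kept a gene whose NRC reached 20 in the 2 neoSFs or in the 4 monoiPSCs, and these were tested with edgeR 4.0.16 on TMM-scaled counts (R 4.3.3). The standard error is the log2 fold change divided by the square root of F. DESeq2 1.42.0, limma 3.58.1, RLE scaling, no filter, a strain block and leaving out each library were alternatives. The tests were checked on simulated counts, in which few genes changed and each library was drawn independently. Here many genes changed and the passages of a line are not independent, so the check does not cover these features.

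Each monoiPSC line came from the neoSFs of its strain, which pairs the libraries. The strain differences of neoSFs and monoiPSCs correlated at 0.0574 over 12488 genes. Libraries of different strains came from separate cultures, while both passages of a line are the same cells at different times. Nothing names replicate cultures within a strain, so p-values measure the spread between these libraries. The members and lists were chosen with earlier results of these data known. Named pathway genes are the 3 highest and 3 lowest called genes of each list, and CTC1, NHP2, TERF2IP, PRIM1 and MYC were added after their values were seen. Promoter and protein sequences were not used here. TERC, FEN1, MYCN, SP1, MEN1 and MAJIN, and COL1A2, KRT5 and PMEL among the markers, were not analysed here. STN1, MRE11, TERB1, TERB2 and KRT14 were matched by gene number through the RefSeq table of mMonDom1.pri, used for names and neighbours only.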

Additional observations from a re-analysis of the deposited data

Results flagged for a closer look

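Of 22 named genes checked, WT1 was the single one with a monoiPSC library far from the other 3. FD2M1 at passage 25 had an NRC of 1.57 and the other 3 libraries were at 0, so its gap took up the whole range of the group (ratio 1.0). This rests on 2.50 counts, under the floor of 3. With the other 3 libraries at 0, any value above 0 gives a ratio of 1.0. The rate of about 1 in 20 groups that chance puts past the limit of this check thus does not apply here.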

How the results depend on the processing

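The calls of TERT and ACD held under every alternative run, with log2 fold changes of 3.77 to 4.13 and 1.33 to 2.14, and RTEL1 lost its call without either neoSF library (1.29 and 1.22) and ranged from 1.11 to 1.44 when 1 library was left out. The members called as higher were 2 to 3 and those called as lower 0 throughout. The strain block pairs each line with its neoSFs, left 3 members called and changed no call. Under the block NOP10, GAR1 and DKC1 also passed the p threshold, and under limma and without FD2M1-P15 NOP10, all at under 2-fold. POT1 ranged from -0.31 to 0.16 when 1 library was left out and changed sign without the LSD1 neoSFs. For passage 25 against passage 15, TINF2 had a log2 difference of -0.0019, which changed sign to 0.0042 with RLE scaling, 0.0042 with DESeq2, 0.013 with limma and 0.0030 with no strain block. Leaving out 1 monoiPSC library, with no covariate, changed the sign of the passage difference of TERT (-0.66 to 0.096), TERF1 (-0.046 to 0.22), POT1 (-0.46 to 0.020), TINF2 (-0.12 to 0.12, with 0.031 and 0.00052 between), DKC1 (-0.41 to 0.17, with 0.075 between), RTEL1 (-1.06 to 0.070), GAR1 (-0.63 to 0.068, with 0.031 between) and NOP10 (-0.59 to 0.080, with 0.079 between), and of the line difference of TERF2 (-0.13 to 0.049). Such a fit compares 1 library with 2 and assumes that the lone library varies like the others, and the cause was not tested. The neoSF levels rest on 1 library per strain, and counts in neoSFs were the fewest, 12 per library for TERT.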

Other observations

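Of the meiotic telomere genes, which tether telomeres to the nuclear envelope in germ cells, TERB1 had an NRC of 1.58 to 9.11 in neoSFs and at most 3.77 in monoiPSCs, and TERB2 was at 0 in neoSFs and at most 1.14 in monoiPSCs. Both were below the filter and were not tested.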
